A study of Mus musculus with 18 samples.

Results

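A set of 8 miRNAs best known from red blood cells, liver and blood vessel lining was followed in mouse bone marrow-derived dendritic cells (BMDC) and in the extracellular vesicles (EV) these cells released. The 8 were miR-451a, miR-144-3p, miR-486a-5p and miR-486b-5p as erythroid miRNAs, miR-122-5p and miR-192-5p as liver miRNAs, and miR-126a-3p and miR-126a-5p as endothelial miRNAs. The set was chosen with earlier results of these data known. Its rows were found by mature name among 1907 mature miRNA names in 2045 annotated rows, and each name stood in 1 row. Small RNA was sequenced from LPS-EV, VitD3-EV and control-EV and from the matching LPS-DC, VitD3-DC and control-DC, with 3 replicates of each and 18 libraries in all. LPS was given for 24 hours, VitD3 at 10 nM for 12 days, and control cultures received neither. All cultures were grown from primary bone marrow in medium with GM-CSF that came from a producing cell line, and with fetal calf serum. For the collection step this medium was depleted of EV, which by the study's methods removed most EV but not all. EV were purified by differential and sucrose density centrifugation, and EV libraries were made from a smaller RNA input than cellular libraries.

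A miRNA is cut from a hairpin precursor and guides Argonaute proteins to messenger RNAs that pair with its seed. miR-451a and miR-144-3p come from 1 cluster that the erythroid factor GATA1 switches on, and miR-451a is one of the most abundant miRNAs of red blood cells. Its short hairpin bypasses Dicer and is sliced by AGO2. miR-486-5p comes from an intron of Ank1, which encodes a red cell membrane protein, and is also expressed in muscle. miR-122-5p makes up most of the miRNA of hepatocytes, while miR-192-5p is found in liver, gut and kidney and is made in other cells too. Both miR-126 arms come from Egfl7, an endothelial gene. miR-126-3p supports VEGF signalling in blood vessels and is also known from platelets and blood progenitors. The study lists miR-126a-3p, as enriched in VitD3-EV, among miRNAs with a reported function in dendritic cells. The endothelial label is therefore not exclusive. The miRNAs of this set circulate in plasma, so their share in EV and in cells was compared as a possible sign of RNA from cells other than the dendritic cells. A larger share in EV does not by itself give the source. The study proposes that cells pass selected RNAs into EV, and this comparison cannot tell such sorting apart from outside RNA.

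The mature sequences, from RefSeq for GRCm38.p6, are shown because reads are assigned to these miRNAs by sequence alone. They are given from 5′ to 3′ with the seed (bases 2 to 8) in capitals, for the 4 members that the table held and for miR-215-5p, a relative of miR-192-5p.

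miR-451a: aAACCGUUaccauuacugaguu

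miR-144-3p: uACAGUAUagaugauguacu

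miR-126a-3p: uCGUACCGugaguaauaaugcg

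miR-192-5p: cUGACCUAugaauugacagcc

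miR-215-5p: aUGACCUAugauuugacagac

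No 2 of the 4 members shared a seed, whereas miR-192-5p and miR-215-5p had the same seed and differed at 3 of 21 positions. The hairpins of miR-144 (chr11:78073005-78073070) and miR-451a (chr11:78073170-78073241) lay on the plus strand with 99 bases between them, and no protein-coding gene overlapped either of them in GENCODE. Both hairpins are shown with the mature miRNA in capitals, since the mature miR-451a runs through the loop of its hairpin and the mature miR-144-3p sits on 1 arm.

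miR-144 hairpin: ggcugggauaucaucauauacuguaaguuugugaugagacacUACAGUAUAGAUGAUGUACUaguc

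miR-451a hairpin: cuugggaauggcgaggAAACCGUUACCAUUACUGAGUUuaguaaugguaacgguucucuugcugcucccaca

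The Mir126a hairpin (chr2:26591357-26591429, plus strand) lay inside Egfl7 and overlapped an annotated exon of it. Mir486 (chr8:23142555-23142682, plus strand) lay inside Ank1 and outside its exons, and Mir192 (chr19:6264844-6264932, plus strand) overlapped no other gene. On the opposite strand at the same places, miR-451b and miR-126b-5p had 0 reads in the 18 libraries, and miR-126b-3p had 0 reads in EV and 3 reads in cells, so hardly any read was assigned to these antisense miRNAs. GENCODE also places Mir3107 on the minus strand across Mir486. The rows of miR-486a-5p and miR-486b-5p derive from different hairpins, and how reads were divided between these rows is not given in the sources used here.

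EV libraries held 410968 to 3053774 counted reads and cellular libraries 12427662 to 42065263, of which 33337 to 329240 per EV library were miRNA reads. Levels are given as CPM, reads per 1000000 miRNA reads of a library, and 3 reads, the limit that a count of 0 allows, stood for 9.11 to 90.0 CPM in EV and 0.706 to 2.92 CPM in cells. The libraries of dendritic cells carried the myeloid miRNAs miR-142a-3p (median 1756 CPM in EV and 1776 CPM in cells) and miR-155-5p (726 CPM in EV and 872 CPM in cells). Replicate 3, labelled sequencing run 2 in each group, stood apart in 7 listed muscle miRNAs, which summed to 66826 to 74222 CPM in its EV and 3622 to 7499 CPM in its cells. In replicates 1 and 2 the same list held 15.6 to 136 CPM in EV and 0.643 to 202 CPM in cells. The label of the VitD3-DC library of replicate 2 also reads run 2, while its EV partner is labelled run 1. Fewer cells of a type and less RNA per cell cannot be told apart in such bulk libraries.

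The first question was whether these miRNAs took a larger share of miRNA reads in EV than in the cells that released them. Of the 8 members, 7 passed the test as higher in EV (edgeR quasi-likelihood, FDR below 0.05), all but miR-192-5p, and 0 passed as lower, against 9.34% of the 482 tested miRNA rows that were higher and 12.2% that were lower. All 8 passed the filter of 10 reads over the 18 libraries, but miR-144-3p and miR-126a-5p reached it only through their EV reads, so the filter favoured a higher EV value and their values are a description. Of the 6 members with 10 or more reads in cells alone, a count made after the values were seen, 5 passed as higher in EV. With miR-486a-5p and miR-486b-5p counted once, since they gave nearly the same reads, these were 4 of 5. The median log2 fold change of the 6 was 2.78, against -0.27 over all rows tested, and that background median moved to 0.19 when libraries were scaled to their total miRNA reads. Without replicate 3, 5 members passed: miR-451a, miR-126a-3p, miR-126a-5p and both miR-486-5p rows. In that setting miR-451a and miR-126a-5p reached the filter only through EV reads, and miR-144-3p had too few reads to be tested. The share of all rows called in that setting is not given here. Fitted log2 fold changes of scarce members depend on the fit as well as on the scaling: edgeR gave 3.77 for miR-451a and 2.84 for miR-126a-5p, and DESeq2 gave 6.22 and 5.65 for the same miRNAs. Pooled over libraries the 8 members made up 0.188% of miRNA reads in EV and 0.0664% in cells.

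**Figure D1:**
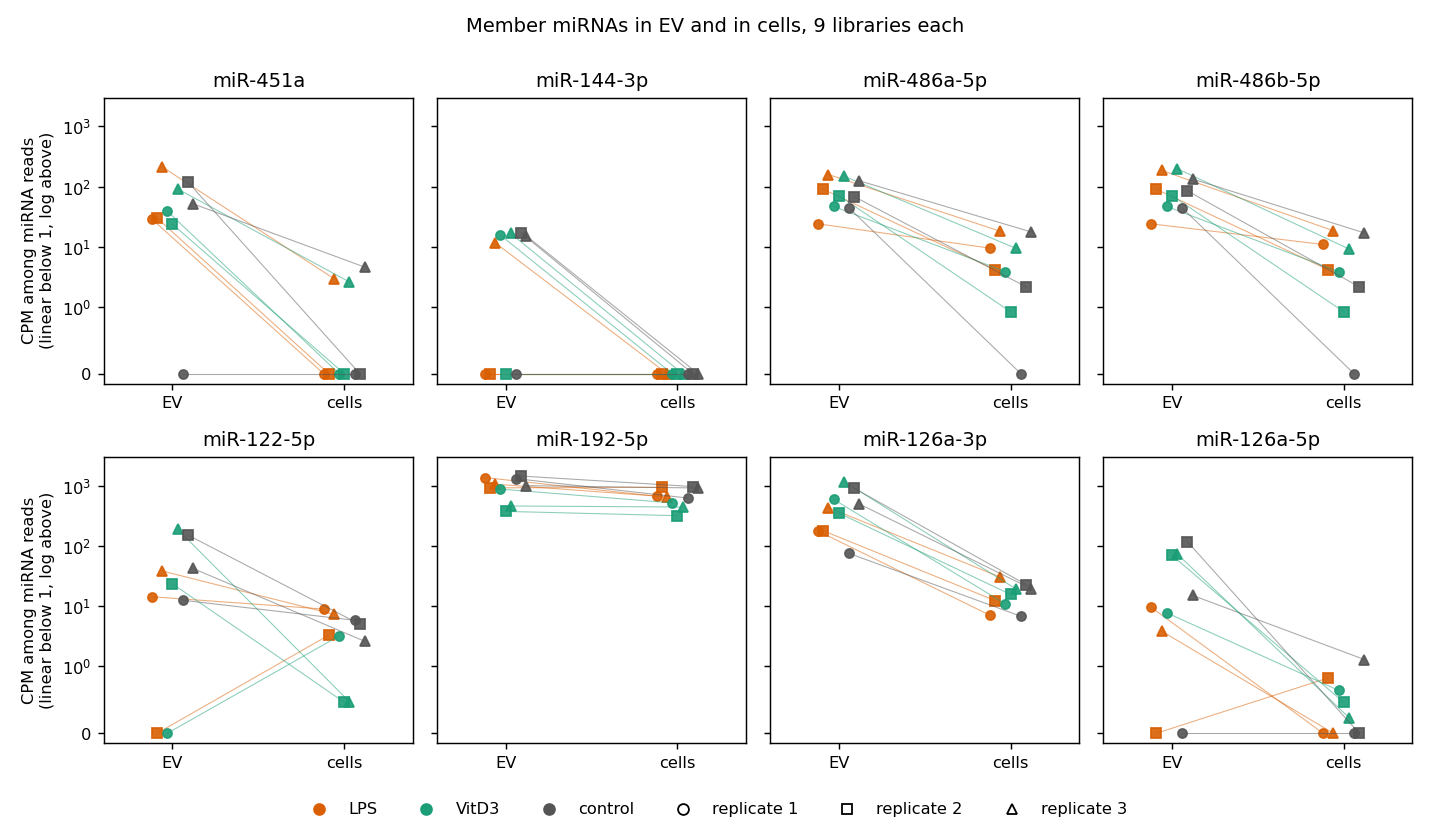
CPM of each member miRNA in the 9 EV libraries (left in each panel) and the 9 cellular libraries (right), with a line joining the EV and the cells of 1 treatment and replicate number. The vertical axis is linear below 1 CPM and logarithmic above it, colours mark the treatment and symbols the replicate number. miR-126a-3p, miR-486a-5p and miR-486b-5p show EV values above all cellular values, and miR-192-5p lies at similar levels in both.

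Among the erythroid miRNAs, miR-451a had 6, 1 and 55 reads in LPS-EV, 5, 1 and 11 reads in VitD3-EV and 0, 7 and 17 in control-EV (replicates 1, 2 and 3). In the far deeper cellular libraries it had 0, 0 and 8 reads in LPS-DC, 0, 0 and 11 in VitD3-DC and 0, 0 and 7 in control-DC. Cellular reads of miR-451a thus came from replicate 3 alone, while 8 of 9 EV libraries held it. As CPM it ranged over 0, 38.9 and 212 (lowest, median, highest) in EV and over 0, 0 and 4.56 in cells. Its summed share was 53.1-fold higher in EV (exact 95% counting interval 34.3 to 85.1). In replicates 1 and 2 alone it had 20 EV reads and 0 cellular reads. Against a floor of 3 cellular reads over the group, its share there was 99.99-fold higher. That value takes the EV count as exact, so it is not a limit that covers counting error in EV. LPS-EV replicate 3 alone held 55 of the 103 EV reads, and without this library, a setting chosen after the values were seen, the share was 30.7-fold higher (18.7 to 51.5). By culture, the share was 93.4-fold higher under LPS (44.6 to 226), 42.2-fold under VitD3 (18.6 to 99.7) and 24.8-fold in control (10.4 to 68.1). The fitted log2 fold change was 3.77 (SE 0.38, FDR 2.02e-14), and the call was kept in all 30 alternative settings. Intervals of this kind cover counting error only, since reads are not independent molecules.

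miR-144-3p, the cluster partner of miR-451a, had 13 reads in EV and 0 in the 9 cellular libraries. Its EV reads were 0, 0 and 3 in LPS-EV, 2, 0 and 2 reads in VitD3-EV and 0, 1 and 5 in control-EV. It was read in 5 of 9 EV libraries, among them all 3 of replicate 3. Its share was 58.1-fold higher in EV on the same floor, again with the EV count taken as exact. The fitted FDR was 9.79e-06, from a miRNA that was tested only because of its EV reads, and the call was lost with DESeq2 and without the LPS-EV library of replicate 3. Its other arm, miR-144-5p, had 6 reads in EV and 1 in cells.

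miR-486a-5p had 5, 3 and 41 reads in LPS-EV, 6, 3 and 18 reads in VitD3-EV and 7, 4 and 41 in control-EV. The cells gave 20, 5 and 49 reads in LPS-DC, 6, 2 and 40 in VitD3-DC and 0, 3 and 27 in control-DC. The summed reads were of similar size, 128 in EV and 152 in cells, although the cellular libraries held 13.4 times as many miRNA reads. As CPM, miR-486a-5p was 24.0 to 158 in EV and 0 to 18.0 in cells, and these ranges did not overlap. The share was 11.3-fold higher in EV (8.85 to 14.4), with a log2 fold change of 2.71 (SE 0.33, FDR 7.50e-11). miR-486b-5p gave nearly the same reads, equal to those of miR-486a-5p in 10 of 18 libraries and never more than 7 reads apart, so the counts of this pair cannot be taken as separate measurements. Its fold was 12.6 (9.99 to 15.9).

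The opposite arm, miR-486a-3p, had 24 reads in EV and 79 in cells. Its summed share was 4.07-fold higher in EV (2.47 to 6.50), and 2.50-fold in replicates 1 and 2 (0.948 to 5.62), with a log2 fold change of 0.89 (SE 0.51, FDR 0.219). Reads of miR-486a-3p were 15.8% of both miR-486a arms in EV and 34.2% in cells, a difference that was not tested.

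The endothelial miR-126a-3p differed between EV and cells by a similar factor in each replicate number. Its levels were 177, 180 and 436 CPM in LPS-EV, 599, 354 and 1185 CPM in VitD3-EV and 75.6, 918 and 501 CPM in control-EV (replicates 1, 2 and 3). In cells they were 7.10, 12.4 and 30.6 CPM in LPS-DC, 10.9, 15.7 and 19.5 CPM in VitD3-DC and 6.82, 23.0 and 19.5 CPM in control-DC. The lowest EV library lay above the highest cellular library, and all 9 pairs were higher in EV, by 11.1-fold to 60.7-fold. In reads, 622 came from EV and 316 from cells. The summed share was 30.6-fold higher in EV in replicate 1 (21.2 to 45.0), 32.7-fold in replicate 2 (23.6 to 45.4) and 25.8-fold in replicate 3 (21.7 to 30.7), so the difference was as large in the replicates without abundant muscle miRNAs. The log2 fold change was 3.96 (SE 0.27, FDR 1.39e-23), and the call held in all 30 alternative settings.

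miR-126a-5p, the other arm, was much scarcer, with 28 reads in EV and 6 in cells. Its EV reads were 2, 0 and 1 in LPS-EV, 1, 3 and 9 reads in VitD3-EV and 0, 7 and 5 in control-EV. EV had the larger share in 7 of 9 pairs, and 1 pair held no read. In the remaining pair, LPS replicate 2, the EV library had 0 reads where 3 reads stood for 90.0 CPM, against 1 read (0.829 CPM) in cells, so no direction could be measured there. The summed share was 62.6-fold higher (25.4 to 185) and the log2 fold change 2.84 (SE 0.49, FDR 1.42e-06), again for a miRNA that passed the filter only through EV reads. This arm made up 4.31% of reads of both arms in EV and 1.86% in cells.

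**Figure D2:**
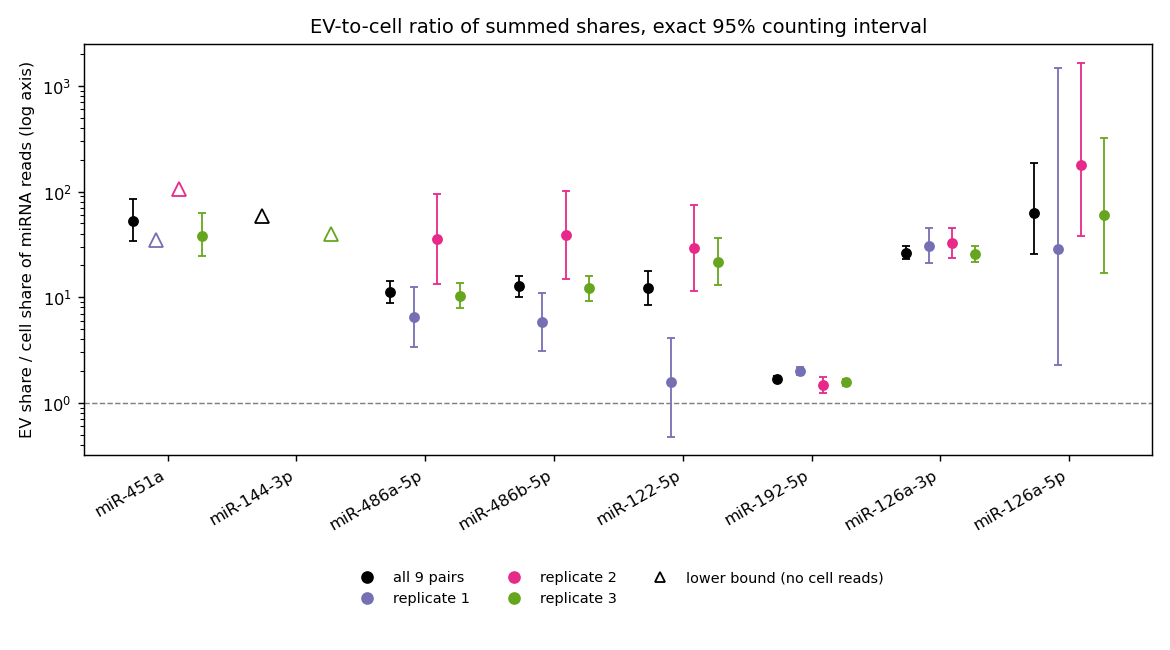
Ratio of the EV share to the cell share of miRNA reads for each member (log axis), summed over all 9 pairs (black) and over the pairs of each replicate number. Bars are exact 95% counting intervals, and the dashed line marks equal shares. Open triangles are lower bounds where cells had no reads, set against a floor of 3 cellular reads with the EV count taken as exact. miR-126a-3p gives 30.6, 32.7 and 25.8 in the 3 replicate numbers, while miR-122-5p gives 1.58 in replicate 1.

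The liver miRNAs behaved differently from each other. miR-122-5p had 3, 0 and 10 reads in LPS-EV, 0, 1 and 23 reads in VitD3-EV and 2, 9 and 14 in control-EV. It had 19, 4 and 20 reads in LPS-DC, 5, 1 and 2 in VitD3-DC and 6, 7 and 4 in control-DC. In 2 EV libraries it was not read, and the most uneven values were in VitD3-EV, where replicate 3 stood at 191 CPM. The share was 12.2-fold higher in EV over all pairs (8.52 to 17.5), 29.5-fold in replicate 2 (11.4 to 74.4) and 21.7-fold in replicate 3 (13.1 to 36.5), but 1.58-fold in replicate 1, where the interval of 0.478 to 4.11 included equal shares. The log2 fold change was 2.49 (SE 0.42, FDR 6.79e-07). The call was lost without replicate 3 and without the VitD3-EV library of replicate 3, with FDR of up to 0.426.

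miR-192-5p was by far the most abundant member and supplied 56.2% of member reads in EV and 93.9% in cells. It ranked 47 among 548 names with reads in EV and 54 among 776 in cells. Its level was 1377, 930 and 1069 CPM in LPS-EV, 886, 378 and 464 CPM in VitD3-EV and 1324, 1461 and 1011 CPM in control-EV. In cells it was 675, 947 and 659 CPM in LPS-DC, 523, 321 and 447 CPM in VitD3-DC and 630, 978 and 926 CPM in control-DC. Ranges in EV and cells overlapped, and 8 of 9 pairs were higher in EV, by 1.04-fold to 2.10-fold. The summed share was 1.69-fold higher in EV (1.60 to 1.78), but this sum weighs libraries by depth. VitD3 libraries, where miR-192-5p was lowest, made up more of the cellular than of the EV miRNA reads. That raises the summed ratio, and the interval does not cover it. By pair, the mean log2 ratio of EV over cells was 0.51 (SD 0.41, 9 pairs). After scaling by TMM the fitted log2 fold change was -0.11 (SE 0.21, FDR 0.745). This sign turned with the scaling, since it was 0.51 when libraries were scaled to total miRNA reads, and no setting gave a call.

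miR-194-5p, which is made from the same clusters as miR-192 and miR-215, likewise did not pass the test, at a log2 fold change of -0.30 (SE 0.24, FDR 0.384). miR-215-5p, with the seed of miR-192-5p, had 5 reads in EV and 25 in cells and a log2 fold change of 0.20 (SE 0.57, FDR 0.855). Of the 10 partner arms, cluster neighbours and relatives of the members, 3 had enough reads to be tested and 0 passed or had an unadjusted p under 0.05, while 4 had no read in any library.

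Other lists were set beside the members. Of 5 listed stromal miRNAs, 3 were tested and all 3 were higher in EV, with a median log2 fold change of 2.46. Among them, miR-143-3p, a miRNA of smooth muscle and fibroblasts, was 12.6, 148 and 1210 CPM (lowest, median, highest) in EV and 0, 1.39 and 43.0 CPM in cells, with a log2 fold change of 4.27 (SE 0.30, FDR 8.10e-23). In replicates 1 and 2 alone its share was 118-fold higher in EV (53.5 to 307), on 55 EV reads and 7 cellular reads, and that of miR-199a-3p was 6.85-fold higher (3.88 to 11.7). miR-199a-5p had 1 EV read and 21 cellular reads in replicates 1 and 2. Of 7 muscle miRNAs, 5 were tested and all 5 were higher in EV, with a median of 2.10. miR-1a-3p, specific to heart and skeletal muscle, had a log2 fold change of 2.05 (SE 0.36, FDR 2.19e-06). The muscle values rest on replicate 3. In replicates 1 and 2 the share of miR-1a-3p was 1.51-fold higher in EV, on 29 EV reads and 288 cellular reads, and the interval of 0.994 to 2.22 included equal shares. The control-DC library of replicate 2 weighed on this sum. It held 282 muscle reads, against 1 to 29 in the other cellular libraries of replicates 1 and 2. By replicate, the fold of miR-1a-3p was 6.56 in replicate 1 (3.39 to 12.4) and 1.48 in replicate 2 (0.732 to 2.70). Without replicate 3, 5 of 6 pairs leaned towards EV and 1 towards cells, all on few EV reads. miR-133b-3p had no read in replicates 1 and 2, and miR-206-3p had 2 reads in EV and 2 in cells there. Of the 7 myeloid miRNAs 0 passed as higher with TMM scaling, and miR-155-5p (-0.87, SE 0.24, FDR 0.00338) and miR-146a-5p (-0.74, SE 0.20, FDR 0.00312), both induced by inflammatory signals, passed as lower in EV. In summed shares of miRNA reads, miR-155-5p was also lower in EV, at 0.732 times the cellular share (0.697 to 0.768), but miR-146a-5p stood at 1.12 times (1.07 to 1.17). By pair on the same scale, miR-146a-5p was higher in EV in 3 of 9 pairs and lower in 6. The sum weighs libraries by depth, so its direction for miR-146a-5p cannot be put down to the scaling alone. miR-142a-5p, a miRNA of blood cells, took a 1.69-fold larger share in EV (1.64 to 1.73) and was larger there in 9 of 9 pairs, while its fitted log2 fold change was 0.23 (FDR 0.406). The lymphocyte miRNA miR-150-5p had 0 reads in EV and 3 in cells. The part of any of these cell types in the members' levels was not tested.

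**Figure D3:**
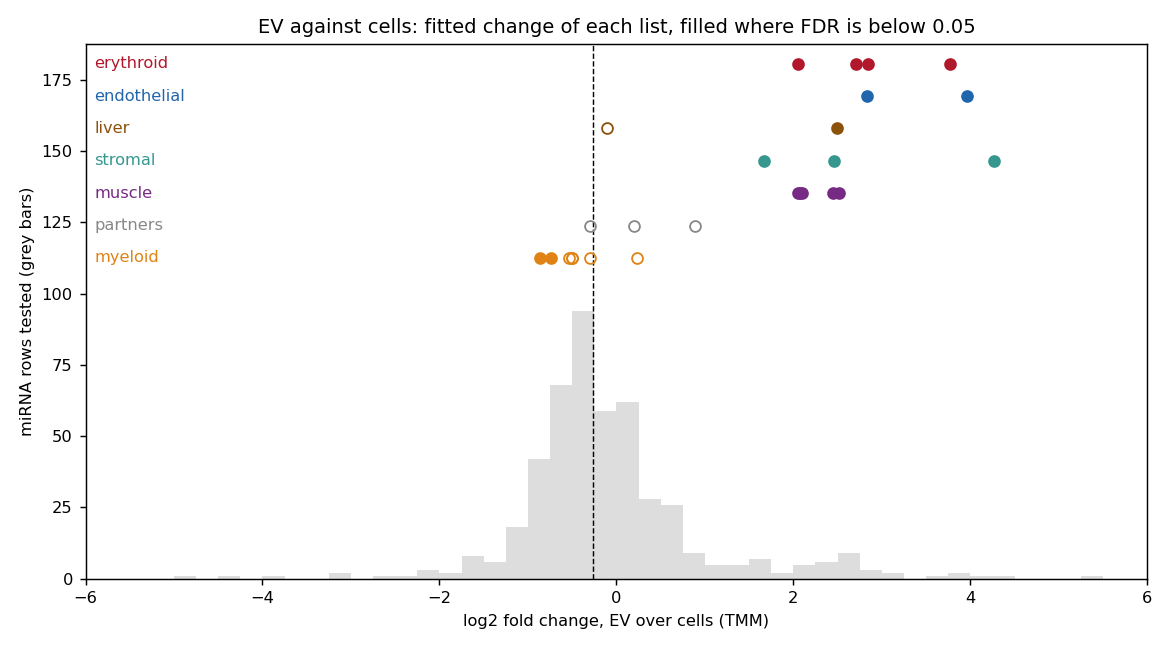
Fitted log2 fold changes of EV over cells for the 482 miRNA rows tested (grey histogram, vertical axis in rows) and for each tested miRNA of 7 lists (points, in rows named at left whose height has no scale). Filled points have FDR below 0.05, and the dashed line is the median of all rows, -0.27. All erythroid, endothelial, stromal and muscle points are filled and lie right of 1, whereas the partner miRNAs are open.

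The levels of the lists in the 3 replicate numbers were then set beside each other. The erythroid sum was 325 to 567 CPM in EV of replicate 3 and 76.8 to 289 CPM in EV of replicates 1 and 2. In cells it was 21.2 to 39.4 CPM in replicate 3 and 0 to 20.4 CPM in replicates 1 and 2. Replicate 3 supplied 79.4% of erythroid reads and 52.9% of miRNA reads in EV, and 77.4% of erythroid reads and 47.3% of miRNA reads in cells. These erythroid values add both miR-486-5p rows, which gave nearly the same reads. The rows held 128 and 145 of 389 erythroid reads in EV, and 152 and 154 of 332 in cells. In EV, miR-486a-5p alone was 125 to 158 CPM in replicate 3 and 24.0 to 90.0 CPM in replicates 1 and 2. miR-451a alone overlapped, at 51.6 to 212 CPM and 0 to 119 CPM. For muscle, replicate 3 supplied 99.9% of reads in EV and 99.3% in cells. The stromal sum was 750 to 1533 CPM in EV of replicate 3 and 12.6 to 408 CPM in EV of replicates 1 and 2. The endothelial sum overlapped between replicate numbers in EV, at 440 to 1260 CPM in replicate 3 and 75.6 to 1037 CPM in replicates 1 and 2. The erythroid, stromal and muscle sums were therefore all higher in EV libraries of replicate 3 than in those of replicates 1 and 2. For the erythroid sum this was seen with both miR-486-5p rows added. Replicate and sequencing run cannot be told apart there.

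Within the labelled runs, miR-126a-3p was higher in EV in 5 of 5 pairs with both libraries in run 1 and in 3 of 3 pairs in run 2. The counts were the same for miR-486a-5p. For miR-451a, 4 of 5 pairs of run 1 and 3 of 3 pairs of run 2 had the larger share in EV, and the remaining pair held no read. For miR-122-5p these counts were 3 of 5 and 3 of 3, and the other two pairs of run 1, LPS replicate 2 and VitD3 replicate 1, had 0 EV reads, which at their depth leaves no direction.

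**Figure D4:**
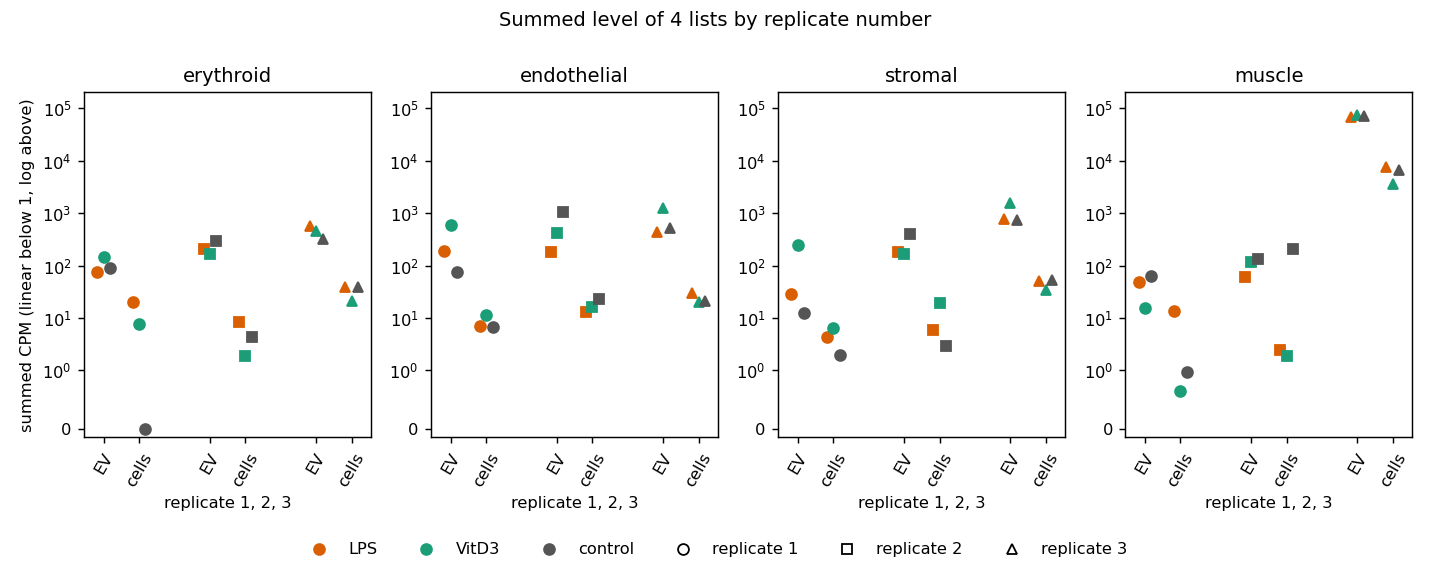
Summed CPM of the erythroid, endothelial, stromal and muscle lists in each library, with EV left of cells for replicates 1, 2 and 3 in turn (vertical axis linear below 1 CPM and logarithmic above). Muscle miRNAs in EV stand at 66826 to 74222 CPM in replicate 3 and at 15.6 to 136 CPM in the other replicates, and each list is higher in the 3 EV libraries than in the 3 cellular libraries of replicate 3.

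EV were also compared with cells within each kind of culture. In LPS cultures 4 members passed, miR-451a, miR-486a-5p, miR-486b-5p and miR-126a-3p, against 9.34% of tested rows called in either direction. In VitD3 cultures 7 members passed, against 11% of rows, and in control cultures 7 passed, against 12.4% of rows. Both counts of 7 include miR-144-3p and miR-126a-5p, which reached the filter only through EV reads. Calls of these miRNAs, here and below, are a description. The counts in each kind of culture also take miR-486a-5p and miR-486b-5p as separate members, although they gave nearly the same reads. miR-192-5p was the one member that passed in no kind of culture. Without replicate 3, 2 members passed in LPS cultures (miR-451a and miR-126a-3p), 4 in VitD3 cultures and 5 in control cultures. miR-486a-5p and miR-486b-5p also lost the LPS call without LPS-EV replicate 3 or LPS-DC replicate 3. With the likelihood ratio test 6 members passed in LPS cultures, as miR-144-3p and miR-126a-5p were added, and with DESeq2 5 passed. Without the replicate block these counts fell to 2 members in LPS cultures, 4 in VitD3 cultures and 2 in control cultures. The share of all rows called in these alternative settings is not given here. The lower count in LPS cultures was not shown to be a difference between treatments: in the test of the difference itself, 0 of 8 members had an interaction of LPS with compartment (0% of rows called) and 0 of 8 an interaction of VitD3 with compartment (0.622% of rows called). The likelihood ratio test and the fit without replicate 3 gave 0 members as well, again with no share of all rows given here. In the main fit the only unadjusted p under 0.05 among the members' interactions belonged to miR-122-5p under VitD3. It was 0.0464, with a log2 difference of 1.70 (SE 0.84, FDR 0.604).

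The next question was whether the treatments themselves moved these miRNAs. In EV, 0 of 8 members passed between LPS-EV and control-EV, where 1.42% of 281 rows were called, and 0 had an unadjusted p under 0.05. Between VitD3-EV and control-EV 0 of 8 passed, where 7.12% of rows were called, and 2 had an unadjusted p under 0.05. DESeq2 and edgeR's likelihood ratio test also called 0 members in both comparisons, but the share of all rows they called is not given here. One of the 2 members with an unadjusted p under 0.05 was miR-126a-3p, with a log2 fold change of 1.16 (SE 0.40, FDR 0.0538). Its mean was 713 ± 427 CPM in VitD3-EV and 498 ± 421 CPM in control-EV (SD, n = 3 each), so the groups overlapped widely. Replicate 2 went the other way, at 354 CPM in VitD3-EV and 918 CPM in control-EV. miR-126a-3p passed in 7 of the alternative settings, among them scaling with DESeq2 size factors and leaving out replicate 2. The other was miR-192-5p, with a log2 fold change of -0.80 (SE 0.33, FDR 0.166).

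Between LPS-EV and VitD3-EV, 1 of 8 members passed, against 14.6% of rows. miR-126a-3p was lower in LPS-EV by a log2 fold change of -1.67 (SE 0.39, FDR 0.00057), at 265 ± 149 CPM in LPS-EV and 713 ± 427 CPM in VitD3-EV (SD, n = 3 each). It was lower in LPS-EV in each of the 3 replicate numbers, although the ranges of the groups overlapped. The call was lost without the replicate block, without replicate 3, and without the VitD3-EV library of replicate 1 or replicate 3, with FDR of up to 0.357. Its other arm, miR-126a-5p, had a log2 fold change of -1.62 (SE 0.75, FDR 0.162). In the same comparison 2 of the 3 tested stromal miRNAs were lower in LPS-EV, and the summed stromal level was 28.8, 180 and 764 CPM in LPS-EV and 249, 165 and 1533 CPM in VitD3-EV.

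In cells 6 of 8 members had enough reads to be tested. None of the 6 passed between LPS-DC and control-DC (0.877% of 456 rows called), between VitD3-DC and control-DC (4.39%) or between LPS-DC and VitD3-DC (7.02%), and the number with an unadjusted p under 0.05 was 0, 0 and 1. DESeq2 called 0 members in all 3 comparisons, and the likelihood ratio test called 1, between LPS-DC and VitD3-DC. The member concerned was miR-122-5p, at 8.99, 3.32 and 7.36 CPM in LPS-DC and 3.21, 0.463 and 0.471 CPM in VitD3-DC, with a log2 fold change of 1.50 (SE 0.54, FDR 0.110). The ranges of miR-122-5p did not overlap, but the values rest on 43 reads in LPS-DC and 8 in VitD3-DC. Without replicate 3, 0 members passed in any of the 3 EV or the 3 cellular comparisons of treatments. The share of all rows called in these alternative fits is not given here. Their counts therefore do not set the members against other rows.

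miR-192-5p was the member whose levels separated by treatment in both compartments without passing the test. Its range in VitD3-EV, 378 to 886 CPM, lay below that of control-EV, 1011 to 1461 CPM. In the same way its range in VitD3-DC, 321 to 523 CPM, lay below that of control-DC, 630 to 978 CPM. The means were 576 ± 272 CPM in VitD3-EV and 1266 ± 231 CPM in control-EV, and 430 ± 102 CPM in VitD3-DC and 844 ± 188 CPM in control-DC (SD, n = 3 each). LPS-EV and LPS-DC also lay above the matching VitD3 groups without overlap. The fitted change in cells was -0.51 (SE 0.26, FDR 0.263), and that in EV (-0.80) became a call when libraries were scaled to total miRNA reads, and also without the LPS-EV library of replicate 2. CPM are shares of miRNA reads, of which miR-21a-5p took 46.6% to 62.6% in VitD3-EV and 30.4% to 37.1% in control-EV. In cells it took 41.4% to 65.5% in VitD3-DC and 24.1% to 35.3% in control-DC. Its part in the miR-192-5p levels was not tested, and rows with ranges apart were not counted over all miRNAs.

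**Figure D5:**
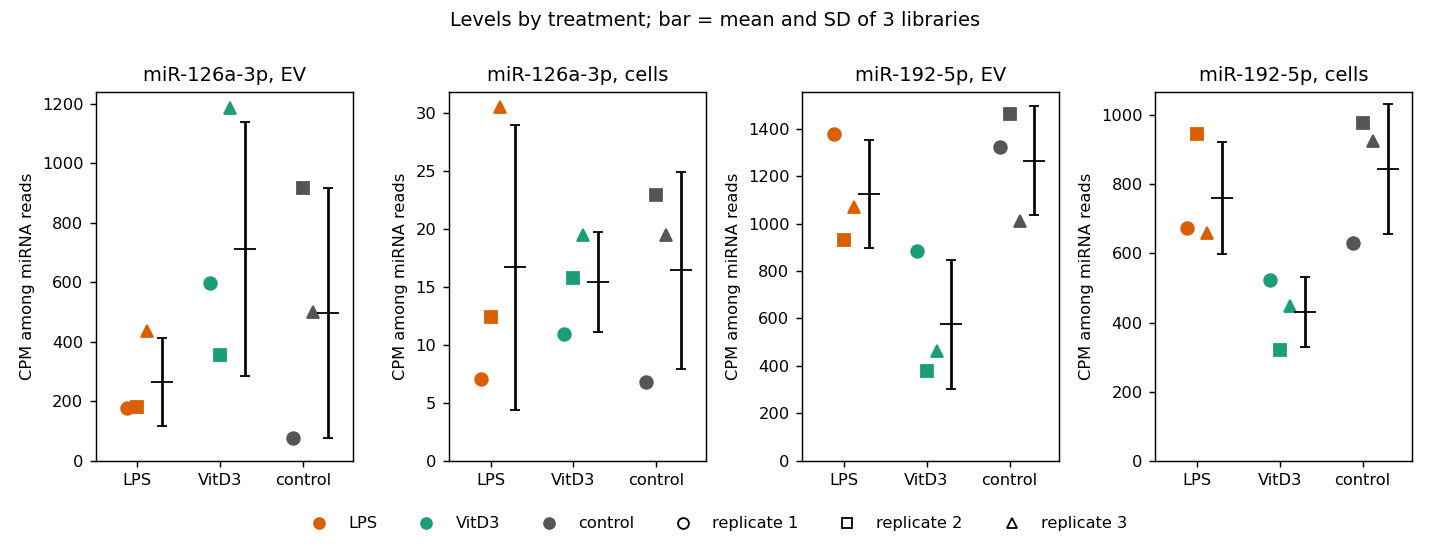
CPM of miR-126a-3p and miR-192-5p in EV and in cells by treatment, with 1 symbol per library and, beside it, the mean and SD of 3 libraries. miR-126a-3p spans 177 to 436 CPM in LPS-EV and 354 to 1185 CPM in VitD3-EV, and miR-192-5p in VitD3 samples lies below control samples in both compartments. Vertical axes differ between panels and start at 0.

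Finally, the miRNAs with the most similar levels to each member over the 18 libraries were listed by Spearman correlation of log2(CPM + 1), among names with at least 100 reads. Libraries share depth, replicate and compartment, so these values only describe the pattern. miR-143-3p was the nearest to miR-451a (rho 0.94) and to miR-126a-3p (0.92). miR-10b-5p came next for miR-126a-3p (0.92) and stood at 0.94 with miR-486a-5p. miR-192-5p instead sat nearest to miR-9-3p (0.85) and its cluster partner miR-194-5p (0.78), and miR-122-5p to miR-7676-3p (0.74). miR-126a-5p was nearest to miR-100-5p (0.78) and then to miR-7676-3p (0.73) and miR-451a (0.71).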

How the data were processed

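The data were 9 EV and 9 cellular small RNA libraries of mouse BMDC. The values start from the authors' deposited table of whole-number read counts per annotated RNA and library. Per the labels and the study's methods, reads were trimmed with cutadapt 1.8, aligned to mm10 with gsnap, which could place a read at several loci, and counted by strand with HTSeq 0.6.1p1 using miRBase annotation. Copies with the same mature sequence can therefore share reads. The table has 6017 rows, of which 0 lack a name. Libraries were checked for duplicates, and 0 of 18 replicate pairs were identical.

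Counts of miRNA rows with at least 10 reads over the libraries compared were tested with edgeR 4.0.16 (quasi-likelihood, two-sided, TMM within the miRNA class, Benjamini-Hochberg over all rows tested). Replicate number was a block, as the study modelled the day of the experiment. In a check of this pairing over miRNAs, same-numbered libraries had residuals with r between 0.206 and 0.835 for EV (9 of 9 over 0.1) and between 0.0391 and 0.751 for cells (8 of 9). EV against cells and interactions used all 18 libraries, and treatments were compared within the 9 EV or the 9 cellular libraries. Fits were tested on simulated data. Alternatives were a likelihood ratio test, DESeq2 1.42.0, other scalings and filters, 1 row per mature miRNA, other blocks, and leaving out replicates. Ratios of summed shares carry exact 95% counting intervals. Named miRNAs are the members, the listed partners and markers, miR-21a-5p, and the 3 miRNAs most like each member. Members and lists were chosen with earlier results of these data known. Sequences and positions come from RefSeq (GRCm38.p6) and GENCODE. P-values measure the spread between these libraries.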

Additional observations from a re-analysis of the deposited data

How the results depend on the processing

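Without the replicate block the number of members higher in EV was 2 in LPS cultures, 4 in VitD3 cultures and 2 in control cultures, and 0 members differed between LPS-EV and VitD3-EV, while over the 3 treatments together 7 members still passed. Between VitD3-EV and control-EV, 1 member passed with DESeq2 size factors and with 1 row per mature miRNA (miR-126a-3p) and 1 with scaling to total miRNA reads (miR-192-5p). Between LPS-DC and VitD3-DC, 1 member, miR-122-5p, passed with the likelihood ratio test, with scaling to total miRNA reads and with a filter of at least 1 read. Leaving out replicates or single libraries gave 5 to 7 members over the 3 treatments, 2 to 4 in LPS cultures, 4 to 7 in VitD3 cultures, 4 to 7 in control cultures, 0 to 2 between VitD3-EV and control-EV and 0 to 2 between LPS-EV and VitD3-EV. For these alternative settings the share of all rows called is not given here. Their counts therefore do not show whether members changed more than other rows. The cause of these changes was not tested. miR-451a, both miR-486-5p rows, miR-126a-3p and miR-126a-5p kept the EV call over the 3 treatments in all 30 alternatives. Depth limits the scarce members most: miR-144-3p rests on 13 reads, miR-126a-5p on 28 reads in EV and 6 in cells, and 3 reads stood for up to 90.0 CPM in EV. The summed EV share over the cell share, recomputed without each library in turn after the values were seen, moved by over 1.5 times for 1 of the 7 members with cellular reads, miR-451a, which stood at 30.7 without LPS-EV replicate 3.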

Other observations

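The most abundant miRNA of both compartments was miR-21a-5p, with a median of 397307 CPM in EV and 359838 CPM in cells, so the members were measured against a class that 1 miRNA filled by a large part. Counting shares without miR-21a-5p left miR-126a-3p higher in EV in 9 of 9 pairs and miR-192-5p in 8 of 9. When shares were taken of all counted reads instead of miRNA reads, miR-126a-3p remained higher in 9 of 9 pairs, miR-451a in 8 and miR-192-5p in 5.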
